A study of Mus musculus with 6 samples.

Results

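The adult globin genes Hba-a1, Hba-a2, Hbb-bs and Hbb-bt and the erythroid haem enzyme gene Alas2 are described here in RNA of mouse brain, as 5 genes of the 36758 in the deposited table, found by symbol with 1 gene ID each. They were chosen by their FPKM values in these same libraries, where they were lower in TMAO than in vehicle, so their differences between the groups are given as a description and carry no test. The study gave C57BL/6J mice 0.12% trimethylamine N-oxide (TMAO), a liver product of a compound that gut bacteria release from choline and carnitine, once a day for 16 weeks (TMAO, 3 libraries), or water for the same 16 weeks (vehicle, 3 libraries). The series' design text gives the age as 6 months, the labels name microglia of brain as the source, and the labels describe no stroke surgery although the title of the series concerns stroke. The extract protocol holds an unfilled template sentence on pooled RNA. Whether each library stands for its own animal is not stated, so a p-value here covers the variation from library to library alone, and that variation may be technical.

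Haemoglobin of adult red blood cells is a tetramer of alpha and beta globin chains, each holding a haem. The alpha chains come from Hba-a1 and Hba-a2 and the beta chains from Hbb-bs and Hbb-bt, the pair of adult beta genes of the C57BL/6 haplotype. Alas2 encodes the erythroid 5-aminolevulinate synthase, the mitochondrial enzyme that starts haem synthesis in red cell precursors, while Alas1 serves the same step in other tissues. Young red cells keep globin RNA after the nucleus is lost, so blood in a tissue brings this RNA with it, and low globin expression has also been described in some neurons and glia.

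In the GRCm38 annotation, matched by gene ID since the table gives no coordinates, Hba-a1 (ENSMUSG00000069919) lies on chromosome 11 from 32283511 to 32284465 and Hba-a2 (ENSMUSG00000069917) from 32296489 to 32297298, both on the plus strand. Hbb-bs (ENSMUSG00000052305) lies on chromosome 7 from 103826534 to 103828096 and Hbb-bt (ENSMUSG00000073940) from 103812524 to 103813996, both on the minus strand. Alas2 (ENSMUSG00000025270) lies on chromosome X from 150547375 to 150570638 on the plus strand. The 250 bases before the RefSeq start of 4 of these genes are printed here because the members moved together. They come from RefSeq on GRCm38.p6, which held all 5 members, and run 5′ to 3′ on the gene's strand. Capitals mark matches on either strand to the letters CCAAT (the CCAAT box), CACCC (a motif that factors related to Klf1 bind), GATAA (a motif of GATA factors) and TATAA (the TATA box), with touching or overlapping matches run together.
Hba-a1 (chr11:32283422-32283671, plus strand): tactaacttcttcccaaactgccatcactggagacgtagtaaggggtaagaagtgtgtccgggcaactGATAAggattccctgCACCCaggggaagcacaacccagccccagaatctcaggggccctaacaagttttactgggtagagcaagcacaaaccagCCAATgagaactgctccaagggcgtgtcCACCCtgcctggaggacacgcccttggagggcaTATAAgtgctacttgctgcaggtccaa
Hbb-bs (chr7:103827929-103828178, minus strand): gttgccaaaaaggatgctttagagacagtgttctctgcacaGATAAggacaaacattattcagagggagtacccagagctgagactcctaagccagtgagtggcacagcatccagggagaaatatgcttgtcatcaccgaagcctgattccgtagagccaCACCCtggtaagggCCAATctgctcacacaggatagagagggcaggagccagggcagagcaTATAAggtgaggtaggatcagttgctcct
Hbb-bt (chr7:103813924-103814173, minus strand): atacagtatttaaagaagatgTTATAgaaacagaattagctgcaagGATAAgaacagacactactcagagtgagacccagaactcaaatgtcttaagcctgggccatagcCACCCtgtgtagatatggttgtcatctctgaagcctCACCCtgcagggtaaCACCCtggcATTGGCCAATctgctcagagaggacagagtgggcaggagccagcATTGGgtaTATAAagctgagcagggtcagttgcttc
Alas2 (chrX:150547167-150547416, plus strand): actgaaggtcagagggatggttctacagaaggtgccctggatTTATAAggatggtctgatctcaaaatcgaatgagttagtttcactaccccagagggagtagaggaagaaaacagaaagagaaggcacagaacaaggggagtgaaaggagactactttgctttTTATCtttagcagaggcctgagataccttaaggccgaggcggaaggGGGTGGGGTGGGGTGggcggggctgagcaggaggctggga

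The upstream sequence of Hba-a2 shared 1 unbroken stretch of 247 of 250 bases with that of Hba-a1, and it is not printed. Those of Hbb-bs and Hbb-bt were identical at 175 of 250 aligned bases. Each of the 4 globin promoters held all 4 motifs, a combination found in 0.968% of 32851 RefSeq promoters of the same length. Of those promoters 33.8% held CCAAT, while the CACCC motif was in 52.0%, the GATAA motif in 22.6% and the TATAA motif in 22.8%. TATAA began 27 bases before the start in Hba-a1, 29 in Hbb-bs and 28 in Hbb-bt. Alas2 held no CCAAT in this window and 3 matches to CACCC on the opposite strand from 40 to 26 bases before the start. It also held GATAA on the opposite strand from 86 to 82 bases before the start, and TATAA at 207 bases. These are matches of letters, and whether a factor binds there was not measured.

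The paralogs share most of their letters, which bears on how reads are divided between them. In the GENCODE M21 models the coding sequences of Hba-a1 and Hba-a2, of 426 bases each, differed at 1 base, and those of Hbb-bs and Hbb-bt, of 441 bases each, also differed at 1 base. Of the stretches of 50 bases in the coding transcript of Hba-a2, 86.9% occurred letter for letter in that of Hba-a1. For Hbb-bt 58.3% of such stretches occurred in Hbb-bs, and 65.8% of those of Hbb-bs occurred in Hbb-bt. No stretch of this length was shared between Hba-a1 and Hbb-bs. No source used here says how multiply mapped reads were counted, so the sums of the pair of alpha genes and of the pair of beta genes are firmer than the values of single paralogs.

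Values are FPKM, read fragments scaled to gene length and library size, and read counts were not used here. Vehicle replicate 1 stood apart, with a correlation of its log2 values with the other libraries of 0.804 to 0.896 across genes, which are not independent replicates, against 0.959 to 0.986 among the other 5. The 10 microglia markers summed to 101 to 116 FPKM in TMAO and 93.3 to 236 FPKM in vehicle, and the 11 neuron markers to 819 to 1002 FPKM in TMAO and 360 to 909 FPKM in vehicle. The label microglia thus stands beside neuron marker sums above the microglia marker sums in every library. Differences that this library moved by over 1.5 times are also given without vehicle replicate 1. In such mixed samples fewer cells of a type and less RNA per cell cannot be told apart.

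Alpha globin RNA was lower in TMAO than in vehicle for both genes. Hba-a1 had 18.2, 27.2 and 21.7 FPKM in TMAO replicates 1, 2 and 3, against 142, 57.4 and 41.3 FPKM in vehicle replicates 1, 2 and 3. Every TMAO library lay below every vehicle library, and vehicle replicate 1 was far above the rest. The means were 22.3 ± 4.52 FPKM in TMAO and 80.3 ± 54.2 FPKM in vehicle (SD, n = 3 each). The difference on the log2(FPKM + 1) scale, TMAO minus vehicle, was -1.62, and -1.11 without vehicle replicate 1.

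Hba-a2 followed nearly the same course. It had 15.6, 22.7 and 20.3 FPKM in the TMAO replicates, against 127, 49.8 and 36.6 FPKM in the vehicle replicates, again with no overlap. The means were 19.6 ± 3.60 FPKM in TMAO and 71.1 ± 48.9 FPKM in vehicle (SD, n = 3 each), with a log2 difference of -1.62, and of -1.10 without vehicle replicate 1. The lowest vehicle library was 1.61 times the highest TMAO library for Hba-a2 and 1.52 times for Hba-a1.

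Hbb-bs was the most abundant of the 5 genes in every library. It had 38.2, 52.9 and 50.6 FPKM in the TMAO replicates, against 233, 110 and 80.4 FPKM in the vehicle replicates. The groups did not overlap, and the libraries stood in the same order as for both alpha genes. Means were 47.2 ± 7.88 FPKM in TMAO and 141 ± 80.7 FPKM in vehicle (SD, n = 3 each). The log2 difference was -1.43, and -0.99 without vehicle replicate 1. Hbb-bs ranked between 523 and 889 among all genes by FPKM in the TMAO libraries and between 81 and 324 in the vehicle libraries.

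Hbb-bt showed the widest gap of the 5. It had 8.003, 6.69 and 11.4 FPKM in the TMAO replicates, against 95.1, 47.7 and 35.8 FPKM in the vehicle replicates. The lowest vehicle library was 3.13 times the highest TMAO library. Vehicle averaged 6.83 times the TMAO level, and 4.79 times without vehicle replicate 1, where the same ratio was 2.99 and 2.02 for Hbb-bs. TMAO replicate 2 was the lowest library for Hbb-bt and the highest TMAO library for the other 3 globin genes.

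Alas2 was the least abundant of the 5. It had 0.671, 0.563 and 0.993 FPKM in the TMAO replicates, against 4.24, 1.84 and 1.44 FPKM in the vehicle replicates. It reached 1 FPKM in 3 of the 6 libraries, all vehicle, and so passed the filter on low values only through the group in which it was high. The means were 0.742 ± 0.224 FPKM in TMAO and 2.50 ± 1.51 FPKM in vehicle (SD, n = 3 each). Its log2 difference was -0.93, and -0.60 without vehicle replicate 1, on a scale that understates changes of low genes; the plain ratio of vehicle to TMAO means was 3.37, and 2.21 without that library.

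**Figure D1:**
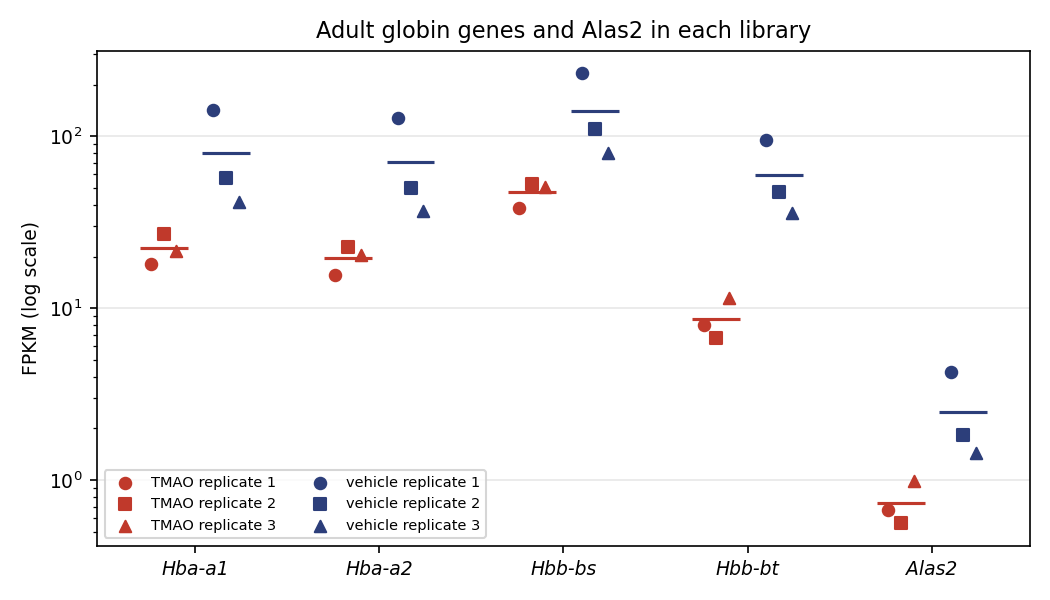
FPKM of the 5 genes in each library on a log axis, TMAO in red and vehicle in blue, with a symbol for each replicate number and a bar at the group mean. For each gene the 3 TMAO points lie below the 3 vehicle points, and vehicle replicate 1 is the highest.

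All 5 genes had a log2 difference below 0, as did 53.2% of the 14206 genes tested, those with at least 1 FPKM in at least 3 libraries. All 5 also had every TMAO library below every vehicle library, where 17.5% of the genes tested did so. In all 5 the vehicle libraries stood in the order replicate 1, 2 and 3, above each TMAO library, as in 10.5% of all genes. Since the genes were chosen for being lower, none of these counts says anything further about them. The median log2 difference of the 5 was -1.62, against -0.027 over all genes tested, and it was -1.10 without vehicle replicate 1. By size of difference Hbb-bt was at place 14 from the lowest of the 14206 genes, Hba-a2 at place 100, Hba-a1 at 101, Hbb-bs at 149 and Alas2 at 474.

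The spread within vehicle was wide and shared by the 5 genes. Vehicle replicate 1 over vehicle replicate 3 was 3.44 for Hba-a1, 3.47 for Hba-a2, 2.90 for Hbb-bs, 2.66 for Hbb-bt and 2.95 for Alas2. Within TMAO the highest library was 1.38 to 1.76 times the lowest. Summed over the 5 genes, TMAO had 80.7, 110 and 105 FPKM and vehicle had 601, 267 and 195 FPKM. The TMAO mean was 0.278 of the vehicle mean, and 0.427 of it without vehicle replicate 1.

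The make-up of the globin RNA was then compared, as the sums differed so much. The share of alpha globin in the summed globin FPKM was 42.2%, 45.6% and 40.4% in TMAO replicates 1, 2 and 3, against 45.1%, 40.4% and 40.2% in the vehicle replicates. The groups overlapped, with means of 42.7% ± 2.64 in TMAO and 41.9% ± 2.78 in vehicle (SD, n = 3 each), while the globin sum differed 7.46-fold between its extremes. Hba-a1 made up 51.6% to 54.5% of alpha globin in TMAO and 52.8% to 53.6% in vehicle. Thus over all 6 libraries the alpha to beta balance and the division between the alpha genes differed between the groups by less than the spread within them. The difference in alpha share was 0.83 points, and 2.43 points without vehicle replicate 1. The division between the alpha genes also depends on how their shared reads were counted, which is not known.

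The beta pair did not keep such a balance. Hbb-bt made up 17.3%, 11.2% and 18.4% of beta globin FPKM in TMAO replicates 1, 2 and 3, against 29.0%, 30.2% and 30.8% in the vehicle replicates. The vehicle libraries lay within 1.79 percentage points of each other although their globin sums differed 3.08-fold, and every TMAO library lay at least 10.6 points lower. The means were 15.7% ± 3.86 in TMAO and 30.001% ± 0.911 in vehicle (SD, n = 3 each), a difference of -14.3 points, and of -14.8 points without vehicle replicate 1. How reads shared by the beta paralogs were counted is not known, so this share is less firm than the beta sum. It is also drawn from the contrast that chose the genes, so it was not tested.

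Alas2 was next set against the globin sum. Per 1000 FPKM of globin it stood at 8.38, 5.14 and 9.54 FPKM in the TMAO replicates, against 7.10, 6.94 and 7.41 FPKM in the vehicle replicates. The groups overlapped, with means of 7.69 ± 2.28 in TMAO and 7.15 ± 0.239 in vehicle (SD, n = 3 each). The spread was wider in TMAO, where Alas2 was under 1 FPKM and lowest in replicate 2, the TMAO library with the highest globin sum.

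**Figure D2:**
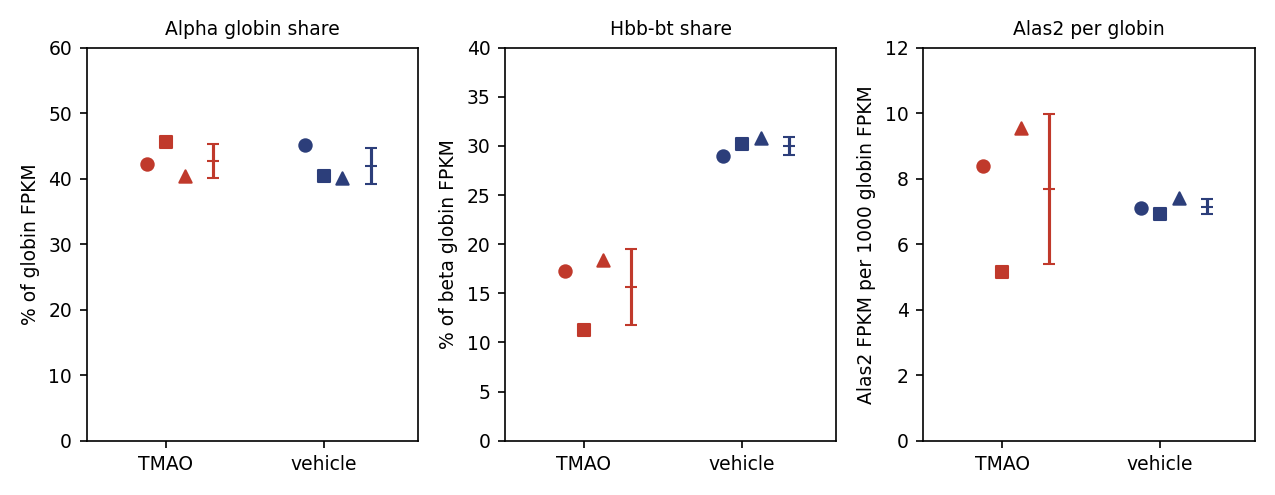
Alpha globin as a percentage of globin FPKM, Hbb-bt as a percentage of beta globin FPKM, and Alas2 FPKM per 1000 globin FPKM, in each library, with the mean and SD of each group beside the points. The groups overlap in the first and last panels, while Hbb-bt lies between 11.2% and 18.4% in TMAO and between 29.0% and 30.8% in vehicle.

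Other globin genes, which carry oxygen in other cells or earlier stages, overlapped between the groups where they were tested. Of 12 listed genes 8 were in the table and 2 were tested. Cygb, the cytoglobin of fibroblasts and some neurons, had 12.5 ± 3.41 FPKM in TMAO and 14.2 ± 1.24 FPKM in vehicle (SD, n = 3 each; log2 difference -0.20, SE 0.20, adjusted p = 0.562 by limma). Ngb, the neuronal neuroglobin, had 1.31 ± 0.428 FPKM in TMAO and 0.708 ± 0.350 FPKM in vehicle, with a log2 difference of 0.44 (SE 0.21) and an adjusted p of 0.405 by limma. The groups overlapped for both. The embryonic globin gene Hba-x was listed at 0 in all 6 libraries, and Hbb-y, another embryonic one, was above 0 only in vehicle replicate 1, at 0.168 FPKM. The theta-like gene Hbq1a, which lies in the alpha globin cluster, ran from 0.420 to 0.709 FPKM in TMAO and from 0.549 to 0.668 FPKM in vehicle.

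The remaining enzymes of haem synthesis, which all cells use, showed small differences in both directions. All 8 listed genes were tested and none passed an adjusted p of 0.05 by limma, where 0% of all genes did; at an unadjusted p under 0.05, 1 was higher and 0 were lower, against 4.84% and 7.22% of all genes. 5 were lower and 3 were higher in TMAO, with a median log2 difference of -0.043 that became 0.028 under median scaling and 0.025 under quantile normalization, 0.0088 without TMAO replicate 3 and -0.074 without vehicle replicate 1. Alas1, the housekeeping counterpart of Alas2, had 7.03, 8.23 and 7.41 FPKM in the TMAO replicates, against 14.9, 9.18 and 8.497 FPKM in the vehicle replicates. Its groups did not overlap, and its log2 difference was -0.43 (SE 0.21), or -0.20 without vehicle replicate 1. Of the 8 genes 1 was lower and 2 were higher without overlap, against 17.5% and 12.1% of all genes tested.

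Ppox, whose product oxidises protoporphyrinogen, had 9.15 ± 0.914 FPKM in TMAO and 6.75 ± 1.05 FPKM in vehicle (SD, n = 3 each; log2 difference 0.39, SE 0.14, adjusted p = 0.404 by limma). Uros, the uroporphyrinogen synthase gene, was at 5.34 ± 0.202 FPKM in TMAO and 4.18 ± 0.652 FPKM in vehicle. The groups did not overlap for Ppox or Uros. Urod, the next enzyme, had a log2 difference of 0.20, and Cpox, the coproporphyrinogen oxidase gene, had -0.19. Alad, the second enzyme of the pathway, and Fech, which inserts the iron, were at -0.052 and -0.035, and both were above 0 under median scaling and quantile normalization. Fech was at -0.13 without vehicle replicate 1.

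Over the 6 lists of other globins, haem synthesis, haem and iron supply, erythroid transcription factors, red cell membrane and red cell cytosol, 68 genes were in the table and 42 were tested. None passed an adjusted p of 0.05 by limma, and the smallest adjusted p over all 14206 genes was 0.404. At an unadjusted p under 0.05, 3 of the 42 were lower (7.14%) and 2 were higher (4.76%), against 7.22% and 4.84% of all genes tested, so these shares were close to the background. In all 22 were below 0 and 20 above, with a median of -0.043, where 53.2% of all genes tested were below 0.

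Genes that supply haem and iron to red cell precursors gave 7 lower and 4 higher among 11 tested, with a median of -0.18 that was 0.0070 without vehicle replicate 1. Slc25a39, a mitochondrial glutathione carrier, had 9.88 ± 0.566 FPKM in TMAO and 16.4 ± 4.79 FPKM in vehicle (SD, n = 3 each; log2 difference -0.65, SE 0.20, adjusted p = 0.404 by limma), and the difference was -0.43 without vehicle replicate 1. Abcb10, a mitochondrial transporter of erythroid cells, had 4.75 ± 0.220 FPKM in TMAO and 6.20 ± 0.244 FPKM in vehicle, with a log2 difference of -0.32. Slc25a38, the mitochondrial glycine carrier, had 6.41 ± 0.818 FPKM in TMAO and 7.71 ± 0.490 FPKM in vehicle. The groups did not overlap in these 3 genes. Over the 11 tested, 4 were lower and 2 were higher without overlap, against 17.5% and 12.1% of all genes tested.

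Of the erythroid transcription factor genes, Gata1, Gfi1b and Klf1 were at or near 0. Gata1, the master factor of the lineage, was above 0 only in vehicle replicate 2, at 0.0386 FPKM. Gfi1b was listed at 0 in all 6 libraries, and Klf1, which drives beta globin transcription, lay between 0.0508 and 0.231 FPKM in TMAO and between 0.116 and 0.168 FPKM in vehicle. Tal1, Lyl1 and Nfe2 also lay below the filter, and each was highest in vehicle replicate 1, at 2.29, 3.12 and 0.370 FPKM. Their means were 0.523, 0.927 and 0.0111 FPKM in TMAO and 1.21, 1.66 and 0.161 FPKM in vehicle. Among them only Nfe2 did not overlap between the groups. Lmo2, which endothelial cells also express, had 3.53 ± 0.160 FPKM in TMAO and 6.08 ± 2.82 FPKM in vehicle (SD, n = 3 each). The 4 tested genes of the list split 2 and 2, with a median of -0.054 that was 0.022 under median scaling, 0.016 under quantile normalization, -0.17 without vehicle replicate 1, 0.0030 without vehicle replicate 2 and 0.010 without vehicle replicate 3.

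Of the red cell membrane genes in the table, 15 in all, 9 lay below the filter on low values. The band 3 anion exchanger gene Slc4a1 ran from 0 to 0.0186 FPKM in TMAO and from 0.0496 to 0.0835 FPKM in vehicle. Gypc, which encodes glycophorin C, ran from 0.0603 to 0.414 FPKM in TMAO and from 0.764 to 3.56 FPKM in vehicle. These 2 genes, named after their values were seen, did not overlap between the groups and lay below the filter, so they were not tested.

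The 6 membrane genes that were tested were all above 0, where 53.2% of all genes tested were below 0. The median of the 6 was 0.41, or 0.23 without vehicle replicate 1, and none passed. Neurons also express several of them. Sptb, a beta spectrin, had 13.2 ± 0.683 FPKM in TMAO and 7.83 ± 3.01 FPKM in vehicle (SD, n = 3 each; log2 difference 0.74, SE 0.27, adjusted p = 0.404 by limma). Add2, the beta adducin, had a log2 difference of 0.72 and Tspan33 one of 0.36. Without vehicle replicate 1 the differences were 0.43 for Sptb, 0.29 for Add2 and 0.20 for Tspan33. Neuron markers were low in the same vehicle library, with Snap25 at 61.0 FPKM in vehicle replicate 1 and 197 to 281 FPKM in the other 5 libraries, and their part in these values was not tested.

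In the cytosol list 7 of 11 tested genes were lower and 4 higher, with a median of -0.15. Bpgm, which makes the red cell regulator of oxygen affinity, had 10.9, 10.8 and 10.3 FPKM in the TMAO replicates, against 17.8, 14.5 and 13.3 FPKM in the vehicle replicates. Its groups did not overlap (log2 difference -0.46, SE 0.13, adjusted p = 0.404 by limma), and the difference was -0.35 without vehicle replicate 1. Car1, a carbonic anhydrase of red cells, had 5.35, 4.35 and 8.09 FPKM in the TMAO replicates, against 6.42, 12.1 and 10.5 FPKM in the vehicle replicates, so vehicle replicate 1 was not its highest library. Ube2l6, which encodes an ISG15-conjugating enzyme and is induced by interferon, had a log2 difference of -0.64, or -0.34 without vehicle replicate 1. Hemgn, a nuclear erythroid gene, was above 0 only in vehicle replicate 3, and Trim58 was listed at 0 throughout.

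**Figure D3:**
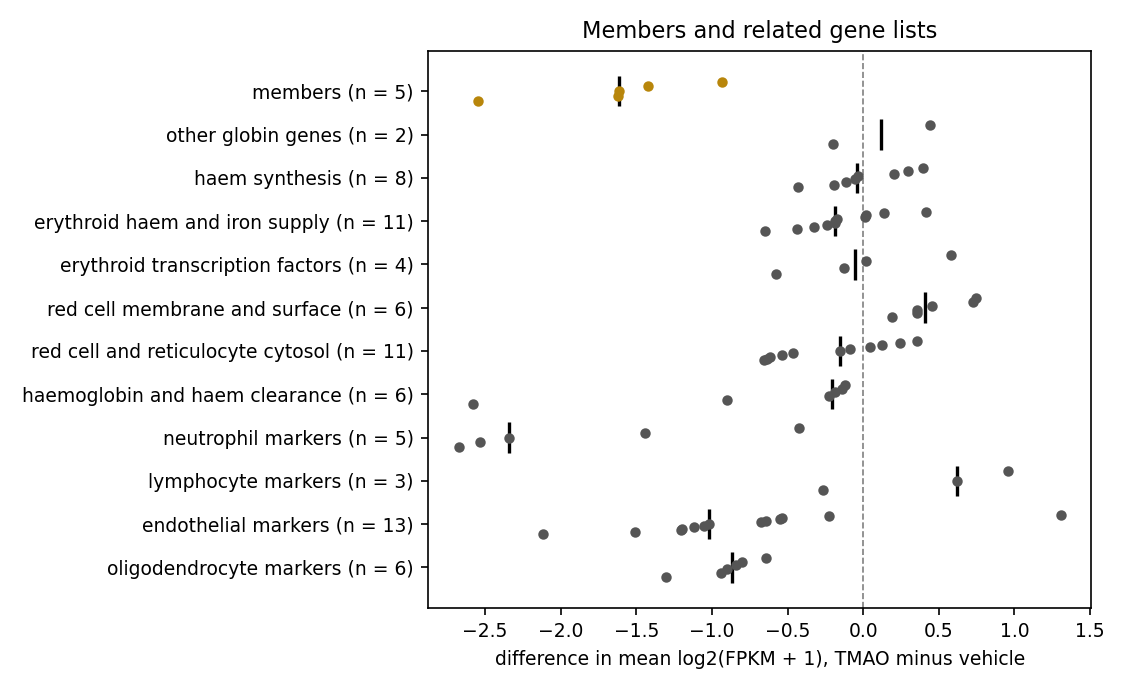
Difference in mean log2(FPKM + 1), TMAO minus vehicle, for each tested gene of the members and 11 gene lists, with a vertical bar at the list median and a dashed line at 0. The members have a median of -1.62, and the 6 globin, haem and erythroid lists have medians between -0.18 and 0.41.

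Genes that clear haemoglobin and haem were below 0 in 6 of 6 tested, with a median of -0.20, where 53.2% of all genes tested were below 0. Without vehicle replicate 1, 4 of 6 were below 0, with a median of -0.17. Hmox1, the inducible haem oxygenase, had 11.5, 37.3 and 13.7 FPKM in the TMAO replicates, against 375, 98.2 and 39.2 FPKM in the vehicle replicates. The lowest vehicle library thus lay just above TMAO replicate 2, and the log2 difference was -2.58 (SE 0.87, adjusted p = 0.404 by limma), or -1.72 without vehicle replicate 1. The constitutive Hmox2 had a log2 difference of -0.19 and the biliverdin reductase gene Blvrb one of -0.90, or -0.28 without vehicle replicate 1, with overlap between the groups. The haptoglobin gene Hp ran from 0.113 to 0.302 FPKM in TMAO and from 0.414 to 5.41 FPKM in vehicle and was below the filter.

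Markers of other blood cells did not all move with the globins. Neutrophil markers were lower in 5 of 5 tested genes (median -2.34), where 53.2% of all genes tested were lower. Without vehicle replicate 1, 4 of 5 were lower (median -1.75). The neutrophil marker sum over 12 genes was 17.6, 37.0 and 20.1 FPKM in the TMAO replicates, against 284, 86.3 and 36.4 FPKM in the vehicle replicates. The groups overlapped in this sum, at TMAO replicate 2 and vehicle replicate 3. Retnlg, a neutrophil-enriched gene, was at 0.438 to 0.831 FPKM in TMAO and 1.51 to 17.01 FPKM in vehicle. Like Alas2 it passed the filter on low values only through vehicle, so its lack of overlap was set by that filter. Its differences are the list medians of -2.34 and -1.75. In 3 of the 5 tested genes, Retnlg among them, every TMAO library lay below every vehicle library, as in 17.5% of all genes tested. Ly6g, below the filter, overlapped, at 0.354 to 0.980 FPKM in TMAO and 0.367 to 0.430 FPKM in vehicle. Of the 10 platelet markers 1 was tested, and their sum was 3.05 to 3.33 FPKM in TMAO and 3.93 to 41.9 FPKM in vehicle, of which Pf4, which border macrophages also express, gave 29.5 FPKM in vehicle replicate 1.

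The lymphocyte marker sum was carried by Trbc2, Ighm and Igkc, receptor and antibody chain genes. The sum over 12 genes was 21.9, 18.0 and 31.5 FPKM in the TMAO replicates, against 8.37, 15.6 and 35.03 FPKM in the vehicle replicates. The sum was lowest in vehicle replicate 1, while the low-level markers Cd79a, Cd79b, Cd3e and Gzma were highest there, at 0.460, 0.156, 0.0529 and 0.181 FPKM. The T cell receptor gene Trbc2 had 10.6 to 14.9 FPKM in TMAO and 1.02 to 17.5 FPKM in vehicle, and 3 genes of the list were tested, 1 lower and 2 higher, with a median of 0.62. Leaving out TMAO replicate 3 gave a median of 0.042, and leaving out vehicle replicate 1 gave 0.078. None passed, and the cytotoxic cell marker Nkg7 was listed at 0 in all 6 libraries.

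Vessel and covering tissue marker sums were, like the globins, highest in vehicle replicate 1, while in vehicle replicate 3 the endothelial and the pericyte and smooth muscle sums overlapped with TMAO. Endothelial markers summed to 183, 218 and 197 FPKM in the TMAO replicates, against 698, 270 and 205 FPKM in the vehicle replicates, with overlap at TMAO replicate 2 and vehicle replicate 3. Of 13 tested 12 were lower (median -1.02), where 53.2% of all genes tested were lower, and 9 were lower without vehicle replicate 1 (median -0.36). Cdh5, the endothelial cadherin, had a log2 difference of -2.12, and -1.36 without vehicle replicate 1. The tight junction gene Cldn5 was also lower (-1.51), while the transporter gene Slco1a4 was higher at 1.31. Fibroblast and choroid plexus markers summed to 3.63 to 6.01 FPKM in TMAO and 6.23 to 91.0 FPKM in vehicle. The 8 markers of pericytes and smooth muscle gave 56.1 to 59.5 FPKM in TMAO and 54.2 to 159 FPKM in vehicle, the 9 of monocytes 21.03 to 59.8 FPKM in TMAO and 32.1 to 152 FPKM in vehicle, and the 8 of border macrophages 3.25 to 6.53 FPKM in TMAO and 4.72 to 73.6 FPKM in vehicle.

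Oligodendrocyte markers were lower in all 6 tested genes, with a median of -0.87, where 53.2% of all genes tested were lower. These markers summed to 352 to 572 FPKM in TMAO and 691 to 866 FPKM in vehicle without overlap. The 6 astrocyte markers summed to 371 to 454 FPKM in TMAO and 397 to 688 FPKM in vehicle. No gene of these lists passed over all genes, and the smallest adjusted p by limma was 0.404. The part of these other cell types in the globin difference was not tested. Without vehicle replicate 1 the globin sums were 80.1 to 109 FPKM in TMAO and 194 to 265 FPKM in vehicle, and the oligodendrocyte and neutrophil medians were -0.87 and -1.75.

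**Figure D4:**
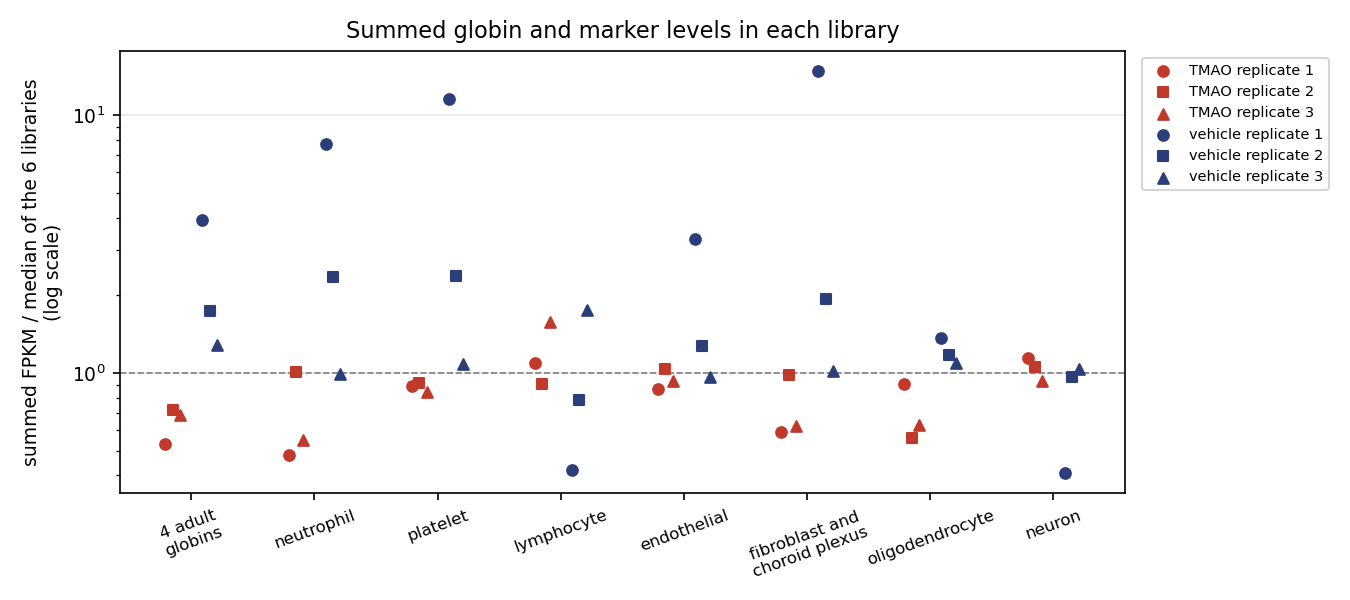
Summed FPKM of the 4 adult globin genes and of 7 marker lists in each library, divided by the median of the 6 libraries, on a log axis, TMAO in red and vehicle in blue. Vehicle replicate 1 is the highest library for the globins and for neutrophil, platelet, endothelial, fibroblast and choroid plexus, and oligodendrocyte markers, and the lowest for lymphocyte and neuron markers.

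The genes with the most similar profile over the 6 libraries were found by the root mean square difference between centred log2(FPKM + 1) values and the mean profile of the 5 genes. The nearest 10 were Fhl3, Glipr2, Marcksl1, Gm13889, Bag3, Bst2, Tgm1, Arpc1b, AI506816 and Pxdc1, at 0.15 to 0.23 on the log2 scale, where the median gene stood at 0.93. Within the 5, Hba-a2 stood at 0.12, Hbb-bs at 0.12, Hba-a1 at 0.15, Alas2 at 0.38 and Hbb-bt at 0.49, so some genes outside the set lay nearer to its mean than Alas2 and Hbb-bt did. Fhl3, a LIM domain gene of muscle and other tissues, had 0.387, 0.619 and 0.549 FPKM in the TMAO replicates, against 7.01, 2.04 and 1.65 FPKM in the vehicle replicates. Like Alas2, Fhl3 passed the filter on low values only through vehicle, which favours a profile of this shape. None of the 10 was in any of the 19 gene lists.

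Without vehicle replicate 1 the nearest 10 were Tgm1, Timp1, Lif, Nes, Glipr2, Odc1, Gm24447, Fhl3, Ptx3 and Hsp25-ps1, and 3 of them, Tgm1, Glipr2 and Fhl3, were in both sets. Lif, Gm24447, Fhl3 and Hsp25-ps1 reached 1 FPKM only in vehicle, and so passed the filter only through that group. Timp1, a metalloproteinase inhibitor, had 2.95, 3.44 and 4.28 FPKM in the TMAO replicates, against 124, 12.5 and 7.39 FPKM in the vehicle replicates. Its value in vehicle replicate 1 was far above the rest, and it was not among the nearest 10 over all 6 libraries. The likeness is a description over 6 libraries.

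**Figure D5:**
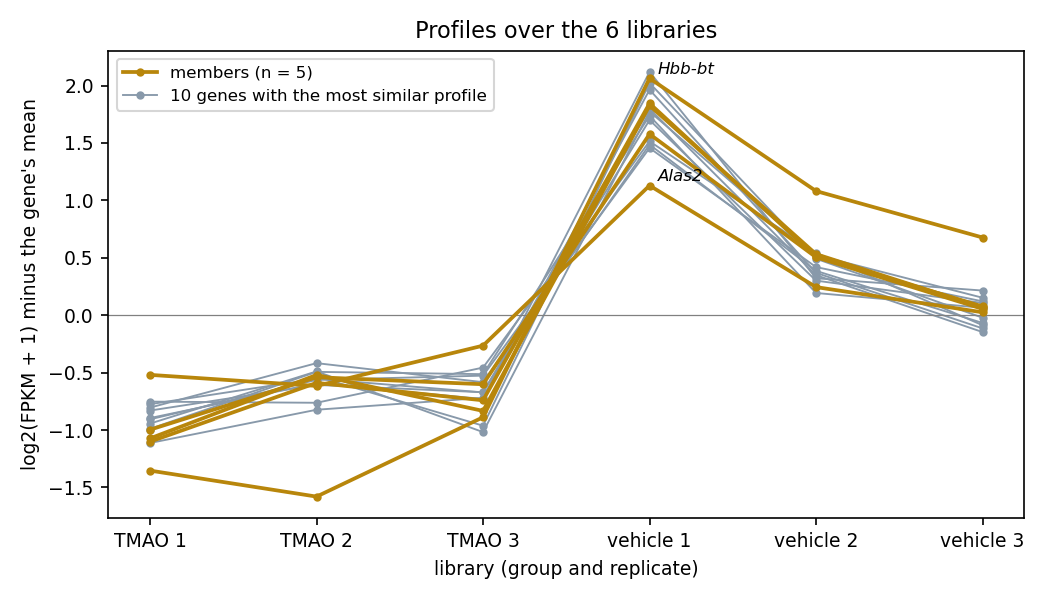
Log2(FPKM + 1) minus the gene's mean in each library for the 5 members (gold) and the 10 genes with the most similar profile (grey), where lines join values of 1 gene and the replicates have no order. Hbb-bt departs from the other globin genes in TMAO replicate 2 and in vehicle replicates 2 and 3.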

How the data were processed

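RNA sequencing gave 6 libraries, 3 per group. The submitters' processing notes list cutadapt 1.9, a read trimmer, and the build mm9. Aligner, quantifier and annotation: not given in the sources used here. The authors deposited FPKM of 36758 genes in 2 tables with identical values, per the file headers. Columns were matched through the library names in the labels' descriptions. Of the gene IDs, 99.6% are in GENCODE M21 (GRCm38). Depth is unknown: of the low values of single-transcript genes, 16.4% to 19.0% fell at whole multiples of a common step (tolerance 2%), and whole reads could not be recovered.

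The 14206 genes that reached 1 FPKM in 3 or more libraries were tested on log2(FPKM + 1) with limma 3.58.1 in R 4.3.3 (trend, robust), two-sided, with Benjamini-Hochberg adjustment at 0.05. The fit was tested on simulated data. Alternatives changed pseudocount, filter, scaling, variance model, a replicate block and each library. The members and gene lists were chosen with earlier results of these data known. Named genes were the members, other globin and haem synthesis genes above 1 FPKM, up to 3 genes per other list by smallest p, and the 10 most similar profiles. Genes below the filter were named after their values were seen. Some genes of the lists are counted but not reported here by name. Python 3.11.15 and matplotlib 3.10.9 were used.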

Additional observations from a re-analysis of the deposited data

How the results depend on the processing

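In 13 alternative fits the 5 genes gave 65 differences, all below 0, from -2.85 to -0.60, and their median ran from -1.99 to -1.10 when 1 library was left out. The summed ratio of TMAO to vehicle then ran from 0.227 to 0.427, the highest without vehicle replicate 1, and was 0.294 rescaled without mitochondrially encoded genes. The Hbb-bt share of beta globin differed by -15.7 to -12.1 percentage points. The small differences in alpha globin share (-0.60 to 2.43 points) and in Alas2 per 1000 globin FPKM (-0.39 to 1.81) took either sign.

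No gene passed the adjusted threshold by limma in any fit (0 of 14206 in the reported fit, 1712 at an unadjusted p under 0.05), and the smallest adjusted p over the alternatives was 0.0930, without TMAO replicate 2. Leaving out 1 library gave 305 to 1975 lower and 223 to 1390 higher genes at an unadjusted p under 0.05, against 1025 and 687, and no filter gave 1111 higher genes, as more genes were tested. Median scaling gave 769 lower and 969 higher genes, and quantile normalization 845 lower and 944 higher. Alad was at 0.021 under median scaling, 0.016 under quantile normalization and between -0.11 and 0.0017 when 1 library was left out. Fech was at 0.034 under both scalings and between -0.13 and 0.037 when 1 library was left out. Their causes were not tested.

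The groups share replicate numbers in the titles. Same-numbered libraries had deviations correlated at -0.22, -0.064 and -0.015 across genes, and differently numbered ones at -0.27 to 0.24. Deviations from means of 3 libraries cannot decide whether the numbers mark pairs. With the replicate block 724 genes were lower and 535 higher, and the median of the 5 genes was -1.62. Read counts were not used here, so the counting error of low values such as those of Alas2 was not estimated.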
